A study of Mus musculus with 10 samples.

Results

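The genes of cytosine methylation and oxidation that act before thymine DNA glycosylase (TDG) were followed across mouse embryonic stem cell (ESC) lines with different numbers of wild-type Tdg alleles. The set was fixed by name as Tet1, Tet2, Tet3, Dnmt1, Dnmt3a, Dnmt3b, Dnmt3l and Uhrf1, which makes 8 genes of 35427 measured and 77 transcripts of 115153. All 8 passed the filter on low counts. They lie on mouse chromosomes 10 (Tet1 and Dnmt3l), 3 (Tet2), 6 (Tet3), 9 (Dnmt1), 12 (Dnmt3a), 2 (Dnmt3b) and 17 (Uhrf1). Tdg itself lies on chromosome 10 as well. The part of DNA inherited together with the targeted Tdg allele in the values of Tet1 and Dnmt3l was not tested. Long RNA was sequenced from 10 male lines on a C57BL/6 background. There were 3 wild-type (wt) lines, 3 lines with 1 wild-type allele (Tdg+/-) and 4 lines with none (Tdg-/-). Each line was derived from a blastocyst of Tdg+/- matings, so a line stands for 1 embryo, and Tdg-/- embryos had no wild-type Tdg allele from fertilization on. According to the paper there were fewer matings than lines, so some lines share parents. Which lines do is not given, and parentage was not part of any fit. All lines were started on feeder cells and then grown on gelatin without serum in 2i medium with LIF. The comparison asks whether loss of TDG, in 1 or both copies, goes along with altered expression of the enzymes that make and oxidize its substrates.

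DNA methyltransferases place a methyl group on cytosine. DNMT3A and DNMT3B do so on unmethylated DNA, DNMT3L is a cofactor without catalytic activity of its own that stimulates them, and DNMT1 copies the mark to the new strand after replication, guided by UHRF1, which binds hemimethylated DNA. The TET dioxygenases oxidize 5-methylcytosine stepwise to 5-hydroxymethylcytosine, 5-formylcytosine and 5-carboxylcytosine, and TDG excises the latter 2 bases to start base excision repair. ESCs kept in 2i medium are known for low genomic methylation, for which low de novo methylation and impaired recruitment of UHRF1 are held responsible.

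Libraries held between 31095354 and 39916106 reads assigned to genes. Tdg itself followed the labels, at 86.5, 91.1 and 93.2 CPM (counts scaled to a common library size) in the wt lines, 40.3, 41.9 and 45.9 in Tdg+/- and 7.76, 10.6, 10.3 and 8.50 in Tdg-/-. All 10 markers of naive ESCs were at 1 TPM or more in every line, none of 7 primitive endoderm markers was, and between 1 and 6 of 10 feeder fibroblast markers were, with a summed level of 14.7 to 21.1 TPM in wt, 3.20 to 22.3 in Tdg+/- and 7.09 to 17.6 in Tdg-/-. Of the 6 trophectoderm markers Cdx2, Elf5 and Hand1 stayed at or below 0.269 TPM, while Tfap2c, which ESCs also express, was at 10.9 to 21.6, Krt7 at 0.937 to 2.67 and Eomes at 0.957 to 1.84 TPM, and together they summed to 18.7 to 25.6 TPM in wt, 17.6 to 24.6 in Tdg+/- and 13.2 to 18.9 in Tdg-/-. Of the 6 primed epiblast markers Otx2 (3.88 to 22.8 TPM) and Zic2 (1.83 to 5.02 TPM) were above 1 TPM in every line and the other 4, Fgf5 among them, were at or below 0.117 TPM. They summed to 6.34, 19.5 and 26.5 TPM in wt, 8.68 to 12.0 in Tdg+/- and 10.7 to 18.5 in Tdg-/-. Some lines stood apart from others of their genotype. Line 1 of Tdg-/- differed from lines 2 to 4 by a root-mean-square (RMS) log2 difference of 0.468 to 0.568 over 9636 genes, while lines 2 to 4 differed among themselves by 0.264 to 0.359. Line 1 of wt differed from the other 2 wt lines by 0.517 and 0.598, and those 2 differed by 0.330. Several values are therefore also given without line 1 of wt or of Tdg-/-. In bulk RNA, fewer cells of a type and less RNA per cell cannot be told apart, and the part of other cell types in the results was not tested. The p-values measure the spread between these lines.

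Transcript length separated Tdg-/- lines 2 to 4 from all other lines. In these 3 lines the genes of the longest length decile (5650 bases or more, 964 genes) had a median log2 CPM of -0.38, -0.26 and -0.29 relative to each gene's median over the 10 lines, and those of the shortest decile 0.36, 0.24 and 0.29. In Tdg-/- line 1 the same values were 0.09 and -0.12, and in the 6 other lines they lay between -0.03 and 0.13 for long genes and between -0.13 and 0.01 for short genes. The 8 genes are not spread evenly over length. Tet1 (14034 bases), Tet3 (10361), Tet2 (8393) and Dnmt3a (6542) fall in decile 10, Dnmt1 (5288) in decile 9, Dnmt3b (3919) in decile 8, Uhrf1 (3521) in decile 7 and Dnmt3l (1741) in decile 3. Gene values of Tdg-/- are therefore also given with the length trend of each line removed, a correction chosen after the data were seen. No such fit was made for single transcripts.

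In wt ESCs Uhrf1 had the highest level per length at 111.7 ± 10.2 TPM (SD, n = 3). It was followed by Dnmt3l at 42.2 ± 12.5 and Dnmt1 at 34.4 ± 2.19 TPM, whose ranges over the lines overlapped. Dnmt3b at 22.9 ± 3.32 and Tet1 at 22.7 ± 2.79 TPM overlapped as well, then came Tet2 at 13.8 ± 4.22, Dnmt3a at 5.01 ± 0.992 and, far below, Tet3 at 0.0846 ± 0.0247 TPM. The sums include short transcripts that take a large share per length. Tet1-209 with 553 bases held 26.6% of Tet1 TPM in wt, and Dnmt3a-210 with 501 bases held 47.2% of Dnmt3a TPM from 21 to 26 reads per line.

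Among the TET genes, the level of Tet1, the main TET enzyme of ESCs, was lower in Tdg-/- than in wt in every line, a difference that missed the threshold and whose size depended on the treatment of transcript length. Tet1 stood at 121.9, 138.3 and 141.0 CPM in wt, at 149.95, 107.1 and 121.6 in Tdg+/- and at 114.5, 92.5, 101.7 and 87.4 in Tdg-/-. The Tdg-/- and wt lines did not overlap, as was the case for 9.8% of all genes in that comparison, whereas the Tdg+/- lines reached from below to above the wt range. The log2 fold change of Tet1 was -0.41 ± 0.123 (SE) in Tdg-/- against wt (edgeR adjusted p = 0.295) and -0.09 ± 0.143 in Tdg+/- against wt (adjusted p = 0.776). With the length trend removed, no gene of the 8 was called in Tdg-/- against wt (0.0646% of all genes were), where Tet1 was at -0.10 ± 0.0905 (edgeR adjusted p = 0.591). With the effective lengths deposited by the authors as an offset it was -0.28 ± 0.132 (edgeR adjusted p = 0.385). The Tet1 value of Tdg-/- against Tdg+/- turned from -0.35 ± 0.143 (edgeR adjusted p = 0.116) to 0.13 ± 0.109 (adjusted p = 0.431) with the length trend removed and was -0.19 ± 0.124 (adjusted p = 0.313) with the offset.

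The values of Tet2, the second TET gene of ESCs, overlapped between all genotypes. Its levels were 51.1, 93.6 and 95.1 CPM in wt, 62.6, 72.6 and 87.0 in Tdg+/- and 98.1, 54.1, 63.3 and 57.4 in Tdg-/-. The lowest and the highest value of all belong to the lines that stood apart, wt line 1 and Tdg-/- line 1. Without Tdg-/- line 1 the Tet2 value of Tdg-/- against wt moved from -0.21 ± 0.253 to -0.43 ± 0.216 (edgeR adjusted p = 0.648 and 0.181), and without wt line 1 to -0.45 ± 0.219 (adjusted p = 0.383). After removal of the length trend it was 0.014 ± 0.183 (edgeR adjusted p = 0.976), and against Tdg+/- it went from -0.12 ± 0.21 (adjusted p = 0.705) to 0.20 ± 0.132 (adjusted p = 0.31). Tet3, which is known for its role in the zygote, was barely detected, with 28 to 95 reads per line. It was at 1.84, 1.24 and 1.25 CPM in wt, 1.95, 1.44 and 2.29 in Tdg+/- and 1.27, 0.772, 1.10 and 1.04 in Tdg-/-. The Tdg-/- lines were all below the Tdg+/- lines, as 24.5% of all genes were fully apart there, with a log2 fold change of -0.86 ± 0.261 (edgeR adjusted p = 0.0614). This fell short of the threshold, and the value was -0.46 ± 0.226 (edgeR adjusted p = 0.176) with the length trend removed. Against wt, Tet3 in Tdg-/- was at -0.45 ± 0.271 (edgeR adjusted p = 0.391), at -0.24 ± 0.274 (adjusted p = 0.651) without wt line 1 and at -0.20 ± 0.26 (adjusted p = 0.704) with the length trend removed.

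**Figure D1:**
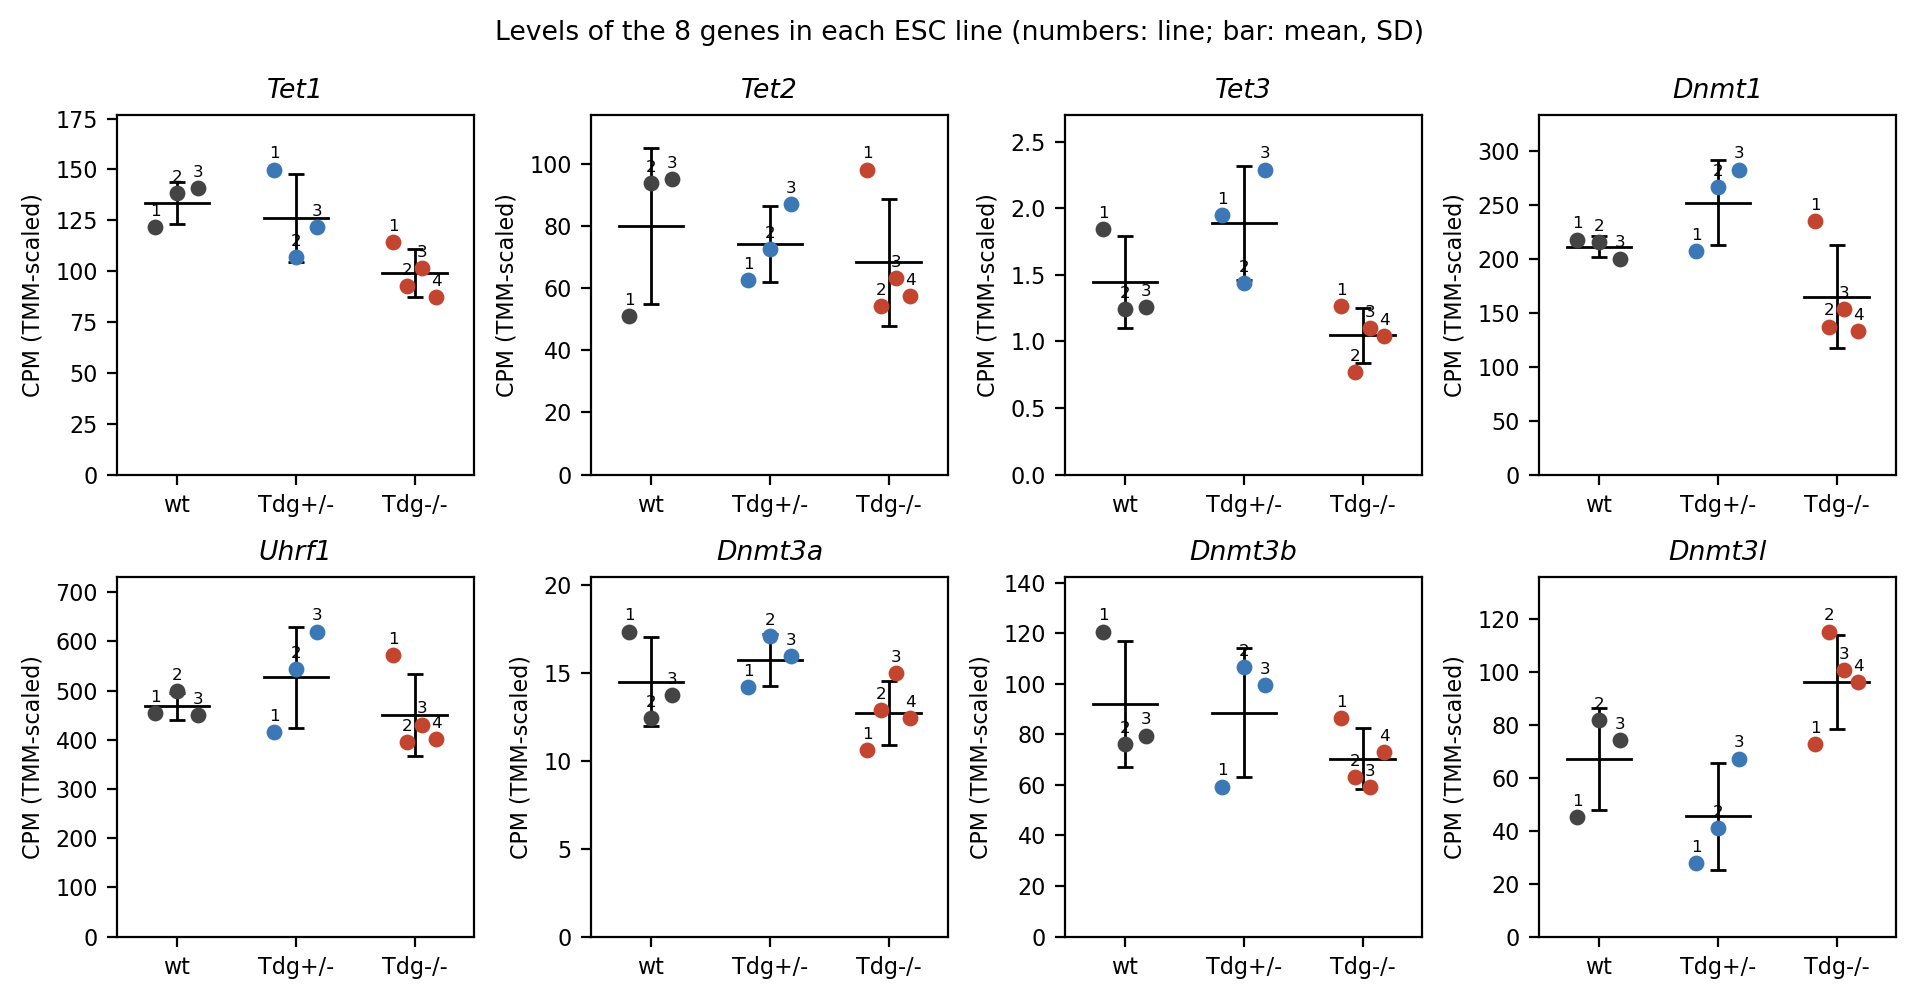
TMM-scaled CPM (y axis, from 0) of the 8 genes in the 10 ESC lines, by genotype (x axis). Points are lines with their number, the horizontal bar is the mean and the whisker the SD. Dnmt3l was at 72.7 to 115.2 CPM in the 4 Tdg-/- lines and 27.8 to 67.2 in the 3 Tdg+/- lines, and line 1 of Tdg-/- lay highest of its genotype for Tet1, Tet2, Tet3, Dnmt1, Dnmt3b and Uhrf1.

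For the maintenance genes, Tdg-/- lines 2 to 4 held less Dnmt1 than any other line, while line 1 did not. These are the lines with the shift against long transcripts, and the share of all genes that split this way was not counted. Dnmt1 was at 218.0, 216.0 and 200.4 CPM in wt, at 207.6, 266.5 and 283.0 in Tdg+/- and at 235.6, 137.3, 153.9 and 133.3 in Tdg-/-. Over all 4 Tdg-/- lines the log2 fold change was -0.61 ± 0.204 against Tdg+/- (edgeR adjusted p = 0.0744) and -0.34 ± 0.185 against wt (adjusted p = 0.36), and edgeR called neither, while DESeq2 called the former (-0.59 ± 0.21, DESeq2 adjusted p = 0.0244), as did edgeR with all 10 lines in the fit (edgeR adjusted p = 0.0496). Of all genes, DESeq2 called 24.0% against Tdg+/-, and edgeR with all 10 lines in the fit called 1834. After removal of the length trend the Dnmt1 values were -0.41 ± 0.136 (edgeR adjusted p = 0.0712) against Tdg+/- and -0.20 ± 0.129 (adjusted p = 0.456) against wt. Without line 1 the value was -0.83 ± 0.126 against Tdg+/- (edgeR adjusted p = 0.00219) and -0.55 ± 0.09 against wt (adjusted p = 0.0105). In these 2 fits 40.6% and 22.1% of all genes were called. With the length trend removed and line 1 left out, the call against Tdg+/- held at -0.52 ± 0.107 (edgeR adjusted p = 0.00915) and that against wt did not, at -0.32 ± 0.0921 (adjusted p = 0.0713). There 32.7% and 7.04% of all genes were called.

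In Uhrf1 too, Tdg-/- line 1 lay above lines 2 to 4, but line 3 was above the lowest Tdg+/- line. It was at 453.8, 500.0 and 450.4 CPM in wt, at 416.7, 544.2 and 620.2 in Tdg+/- and at 572.6, 395.3, 431.1 and 400.8 in Tdg-/-. All 3 genotypes overlapped. The fold change was -0.04 ± 0.142 in Tdg-/- against wt (edgeR adjusted p = 0.898) and -0.23 ± 0.173 against Tdg+/- (adjusted p = 0.367), and without line 1 it was -0.16 ± 0.0798 (adjusted p = 0.164) and -0.36 ± 0.138 (adjusted p = 0.0634). Once the length trend was removed it was 0.033 ± 0.102 against wt (edgeR adjusted p = 0.885) and -0.12 ± 0.134 against Tdg+/- (adjusted p = 0.551).

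Dnmt3l was the one gene of the 8 that passed the edgeR test when each pair of genotypes was fitted with all of its lines and no covariate. It did so in Tdg-/- against Tdg+/-, where edgeR called 9.03% of all genes, so 1 call among 8 is near the share over all genes. The gene, which codes for the cofactor, rose in Tdg-/- against Tdg+/- with a log2 fold change of 1.08 ± 0.273 (edgeR adjusted p = 0.0436), that is a ratio of mean CPM of 2.12. Dnmt3l lies on chromosome 10 like Tdg, and the Tdg+/- lines had higher levels of chromosome 11 genes, given below. The part of linked DNA or of that shift in the Dnmt3l value was not tested. Levels of Dnmt3l were 27.8, 41.1 and 67.2 CPM in Tdg+/-, 72.7, 115.2, 100.6 and 96.1 in Tdg-/- and 45.3, 81.7 and 74.4 in wt. The wt lines lay between and overlapped with both, at -0.57 ± 0.325 for Tdg+/- against wt (edgeR adjusted p = 0.408) and 0.54 ± 0.221 for Tdg-/- against wt (adjusted p = 0.298), and neither value passed the test. Without wt line 1, the lowest wt line, these values were -0.78 ± 0.319 (edgeR adjusted p = 0.199) and 0.32 ± 0.183 (adjusted p = 0.417). The call against Tdg+/- remained with the length trend removed, at 1.0 ± 0.269 (edgeR adjusted p = 0.0433), where the value against wt was 0.43 ± 0.211 (adjusted p = 0.38). The call was lost on leaving out any 1 line other than Tdg-/- line 1, with values from 0.83 without Tdg+/- line 1 to 1.48 without Tdg+/- line 3 and edgeR adjusted p from 0.0587 to 0.138. Without Tdg-/- line 1 the value was 1.20 ± 0.271 (edgeR adjusted p = 0.00923). Of all genes, 12.7% were called with the length trend removed and 40.6% without Tdg-/- line 1.

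The transcripts that carry Dnmt3l start at different promoters, and their windows are shown since reads were assigned to both in every line. Dnmt3l-205 begins in chr10:78042037-78042336 and Dnmt3l-201 in chr10:78049592-78049891, both on the plus strand of GRCm38.p6 (RefSeq, 250 bases before and 50 after the start, CG dinucleotides in capitals).
Dnmt3l-205: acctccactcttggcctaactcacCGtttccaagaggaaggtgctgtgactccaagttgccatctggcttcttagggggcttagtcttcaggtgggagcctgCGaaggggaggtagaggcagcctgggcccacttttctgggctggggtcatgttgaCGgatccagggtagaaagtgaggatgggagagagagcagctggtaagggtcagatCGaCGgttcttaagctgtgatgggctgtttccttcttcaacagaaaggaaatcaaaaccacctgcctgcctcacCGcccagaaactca
Dnmt3l-201: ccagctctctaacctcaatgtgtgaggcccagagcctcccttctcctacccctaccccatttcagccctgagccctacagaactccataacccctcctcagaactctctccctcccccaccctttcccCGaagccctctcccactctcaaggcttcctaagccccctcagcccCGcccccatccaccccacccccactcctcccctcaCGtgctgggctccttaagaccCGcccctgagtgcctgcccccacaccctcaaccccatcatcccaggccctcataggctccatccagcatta
The windows hold 6 and 4 CpG, and 56.4% and 68.6% of all 32851 windows hold at least as many. Dnmt3l-205 was at 11.9, 22.9 and 22.6 TPM in wt, 9.36, 9.18 and 18 in Tdg+/- and 21.9, 22.2, 21.2 and 21.4 in Tdg-/-. Dnmt3l-201 was at 13.3, 18.3 and 14.8 TPM in wt, 3.79, 11.9 and 14.5 in Tdg+/- and 18.4, 23.5, 21.8 and 18.4 in Tdg-/-. Every Tdg-/- line was above every Tdg+/- line for both transcripts (17.6% of all transcripts were fully apart there), with log2 fold changes of 1.0 ± 0.289 and 1.19 ± 0.458, neither of which passed the test over all transcripts (edgeR adjusted p = 0.182 and 0.258), while DESeq2 called Dnmt3l-205 (DESeq2 adjusted p = 0.0104). The third named transcript, Dnmt3l-208, was at 2.65, 7.94 and 8.98 TPM in wt, 2.61, 2.22 and 4.28 in Tdg+/- and 6.52, 3.90, 6.12 and 5.16 in Tdg-/-, so that Tdg-/- line 2 overlapped with Tdg+/-. Its log2 fold change between them was 0.95 ± 0.27 (edgeR adjusted p = 0.18, DESeq2 adjusted p = 0.0143). Only 12.3% of the 80-base stretches of Dnmt3l-205, the read length, and 4.32% of those of Dnmt3l-201 occur in no other Dnmt3l transcript, so the division of reads between the starts depends on a small part of each. A further start inside the gene held at most 3.99% of Dnmt3l TPM in any line.

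Neither catalytic de novo enzyme passed the pairwise edgeR test without covariates at the gene level. Dnmt3b was at 120.7, 76.1 and 79.5 CPM in wt, 59.4, 106.7 and 99.6 in Tdg+/- and 86.3, 63.0, 59.2 and 72.9 in Tdg-/-. Values overlapped between all genotypes, and the fold change was -0.37 ± 0.186 in Tdg-/- against wt (edgeR adjusted p = 0.34) and -0.28 ± 0.184 with the length trend removed (adjusted p = 0.465). It was -0.13 ± 0.153 (edgeR adjusted p = 0.67) without wt line 1, the highest of all lines. Against Tdg+/- it was -0.33 ± 0.206 (edgeR adjusted p = 0.271) and -0.19 ± 0.178 (adjusted p = 0.47) with the length trend removed. Dnmt3a was at 12.4 to 17.4 CPM in wt, 14.2 to 17.1 in Tdg+/- and 10.6 to 15 in Tdg-/-. Its TPM were 4.05 to 6.03 in wt, 3.05 to 4.82 in Tdg+/- and 2.39 to 3.67 in Tdg-/-, so Tdg-/- lay below wt on that measure. The share of all genes apart in TPM was not counted, and these sums include Dnmt3a-210, which had 6 to 27 reads per line. The fold change of Dnmt3a on counts, -0.31 ± 0.144 in Tdg-/- against Tdg+/- (edgeR adjusted p = 0.16), was 0.00011 ± 0.187 with the length trend removed. Against wt it was -0.16 ± 0.169 (edgeR adjusted p = 0.593), 0.045 ± 0.22 (adjusted p = 0.931) with the length trend removed and -0.018 ± 0.165 (adjusted p = 0.964) without wt line 1.

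**Figure D2:**
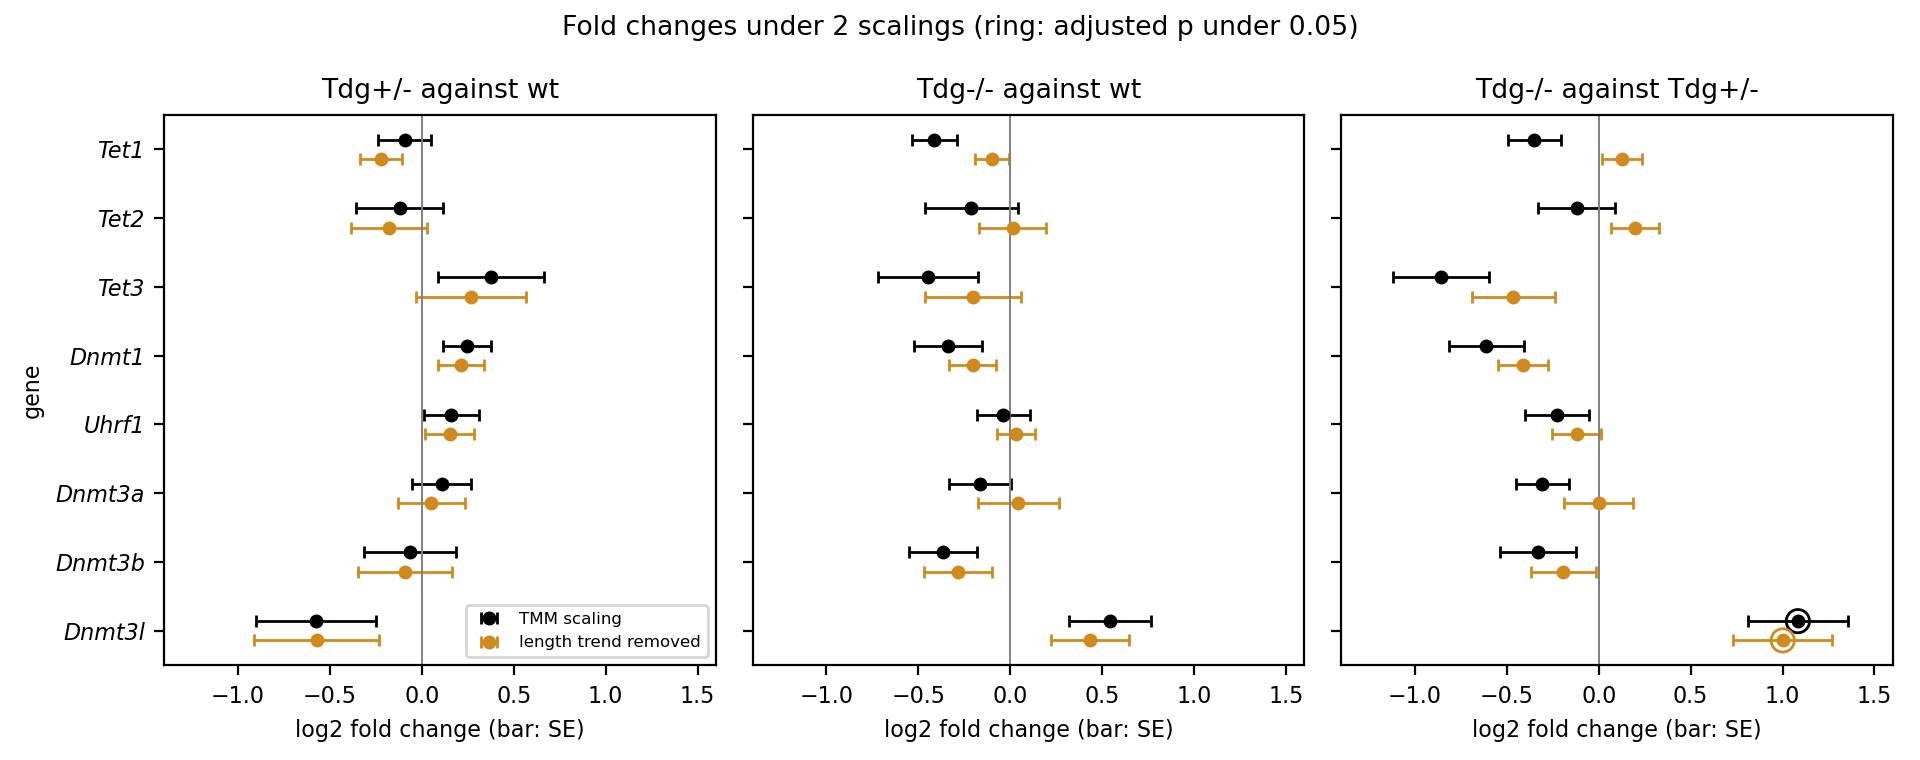
Log2 fold change (x axis) of each gene (y axis) in the 3 pairwise comparisons. Points are edgeR estimates with their SE, black with TMM scaling and orange with the length trend of each line removed, and a ring marks an adjusted p under 0.05. Dnmt3l in Tdg-/- against Tdg+/- carried a ring under both (1.08 and 1.0), and Tet1 in the same comparison moved from -0.35 to 0.13.

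Counted over the set, none of the 8 genes was called in Tdg+/- against wt, where edgeR called 0.0288% of 13880 genes, none had an unadjusted p under 0.05 against 17.0% of all genes, and DESeq2 called none against 5.36%. With 3 surrogate variables, 24.1% of genes were called, and of the 8 Dnmt3l (-0.66, edgeR adjusted p = 0.000669) and Dnmt3b (-0.27, adjusted p = 0.0394) fell. That fit leaves 1 residual degree of freedom. For Tdg-/- against wt edgeR called none, against 0.0718% of genes, with 2 at an unadjusted p under 0.05 (Tet1 and Dnmt3l) against 15.9%, and DESeq2 called none against 0.668%. Without Tdg-/- line 1 the share over all genes was 22.1% and 3 of the 8 were called, Tet1 (-0.48 ± 0.097) and Dnmt1 lower and Dnmt3l (0.66 ± 0.2) higher. With the length trend removed as well, 7.04% of genes and none of the 8 were called by edgeR, 2 being at an unadjusted p under 0.05 against 30.0% of all genes.

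Between Tdg-/- and Tdg+/- edgeR called 1 of 8, Dnmt3l, against 9.03% of all genes, and 4 of 8 had an unadjusted p under 0.05 against 35.2% of all genes. Without Tdg-/- line 1 it called 4 of 8, Dnmt3l higher and Tet1, Tet3 and Dnmt1 lower, against 40.6% of all genes. With DESeq2 these were 3 of 8 (Dnmt3l higher, Dnmt1 and Tet3 lower) against 24.0%. With the length trend removed it was Dnmt3l alone against 12.7%, and Dnmt3l and Dnmt1 against 32.7% when line 1 was left out too. The median log2 fold change of the 8 genes was -0.32 with TMM scaling and -0.06 with the length trend removed, beside -0.02 and -0.0012 over all genes.

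**Figure D3:**
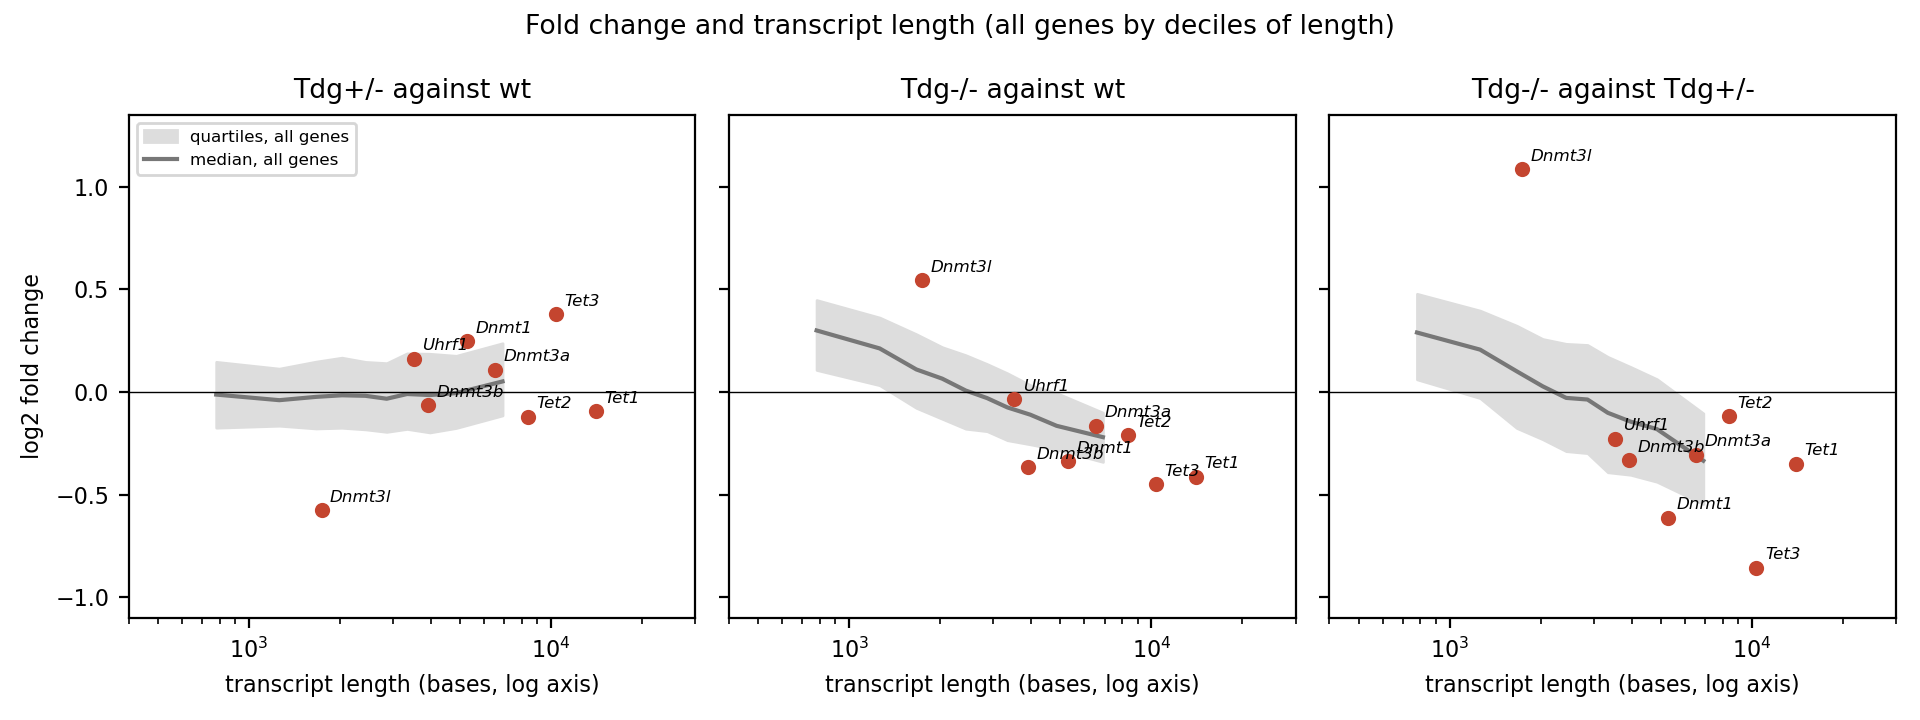
Log2 fold change (y axis) against transcript length in bases (x axis, log scale) in the 3 pairwise comparisons. The grey line and band are the median and quartiles in 10 length deciles of the genes that averaged 5 CPM or more, and red points are the 8 genes. In Tdg-/- against Tdg+/- the median of all genes went from 0.29 in decile 1 to -0.33 in decile 10, and Dnmt3l lay above and Tet3 and Dnmt1 below the band.

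Set against genes of like length, 4 of the 8 genes lay below the middle 50% of their length decile in Tdg-/- against wt, 3 within it and 1 above. For decile 10 this band was -0.34 to -0.10, with Tet1 (-0.41) and Tet3 (-0.45) below it and Tet2 (-0.21) and Dnmt3a (-0.16) inside. Dnmt1 (-0.34) lay below the band of decile 9 (-0.28 to -0.0056) and Dnmt3b (-0.37) below that of decile 8 (-0.26 to 0.033), Uhrf1 (-0.04) lay within that of decile 7 and Dnmt3l (0.54) above that of decile 3. The positions of 4 genes depended on wt line 1, without which Tet2 (-0.45) lay below, Tet3 (-0.24) and Dnmt3b (-0.13) within and Dnmt3a (-0.018) above their bands. Without Tdg-/- line 1, Tet1 (-0.48) lay within the band and Dnmt3a (-0.082) above it. In Tdg-/- against Tdg+/- 5 genes lay within their bands, Tet3 (-0.86) below that of decile 10 (-0.55 to -0.10), Dnmt1 (-0.61) below that of decile 9 (-0.44 to 0.062) and Dnmt3l (1.08) above that of decile 3 (-0.18 to 0.32). No trend of this size with length was seen in Tdg+/- against wt, with medians of -0.01 in decile 1 and 0.05 in decile 10. The part of RNA quality or library preparation in the length trend was not tested.

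Fitted against the Tdg gene dose, as 2, 1 or 0 wild-type copies, none of the 8 genes was called by edgeR (0.0354% of 14105 genes) or by DESeq2 (0.362%), and Tet1 alone had an unadjusted p under 0.05, as did 14.0% of all genes. Tet1 changed by 0.22 ± 0.0724 log2 per allele (edgeR adjusted p = 0.337), and by 0.04 ± 0.0574 (adjusted p = 0.775) with the length trend removed, a fit in which 0.0425% of all genes and none of the 8 were called. Dnmt3l, whose lowest mean was in Tdg+/-, gave -0.29 ± 0.173 (edgeR adjusted p = 0.43).

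At the level of single transcripts the split of Dnmt1 between starts is of interest, because Dnmt1-201 and Dnmt1-202 were about equal and start 6909 bases apart. Their windows, chr9:20952930-20953229 and chr9:20959839-20960138 on the minus strand of GRCm38.p6 (RefSeq), are shown to compare their CpG content (CG in capitals).
Dnmt1-201: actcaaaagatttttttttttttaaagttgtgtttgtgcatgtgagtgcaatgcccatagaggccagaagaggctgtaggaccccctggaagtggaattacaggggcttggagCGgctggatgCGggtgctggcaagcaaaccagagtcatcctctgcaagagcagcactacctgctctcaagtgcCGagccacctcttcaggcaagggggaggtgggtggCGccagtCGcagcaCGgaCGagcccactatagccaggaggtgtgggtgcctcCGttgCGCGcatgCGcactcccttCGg
Dnmt1-202: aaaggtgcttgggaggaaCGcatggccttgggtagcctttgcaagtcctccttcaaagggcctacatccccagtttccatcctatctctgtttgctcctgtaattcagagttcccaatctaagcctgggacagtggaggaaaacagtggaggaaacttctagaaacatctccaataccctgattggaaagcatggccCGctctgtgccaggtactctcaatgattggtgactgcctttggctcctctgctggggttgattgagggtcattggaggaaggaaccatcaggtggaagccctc
They hold 12 and 2 CpG, and 39.6% and 85.9% of all windows hold at least as many. Dnmt1-201 was at 18.2, 14.6 and 14.3 TPM in wt, 16.6, 20.6 and 21.7 in Tdg+/- and 22.2, 7.57, 11.5 and 8.81 in Tdg-/-. Dnmt1-202 was at 15.6, 18.3 and 14.6 TPM in wt, 15.8, 20.2 and 22.3 in Tdg+/- and 16.1, 8.56, 7.83 and 7.71 in Tdg-/-. Both were below the wt range in Tdg-/- lines 2 to 4. In Tdg-/- line 1, Dnmt1-202 lay within the wt range and Dnmt1-201 above it. Another start, with 33 CpG in its window, held at most 1.23% of Dnmt1 TPM in any line. The transcripts share 4736 bases at the 3′ end, and only 4.01% and 2.98% of their 80-base stretches, the read length, occur in no other Dnmt1 transcript, so their division depends on a small part of each transcript.

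None of the tested transcripts of the 8 genes (35 to 39 per comparison) was called by edgeR in any of the 4 comparisons, in which 0.0%, 0.00498%, 0.0122% and 0.00475% of all transcripts were called. At an unadjusted p under 0.05 there were 0 in Tdg+/- against wt, 8 in Tdg-/- against wt, 9 in Tdg-/- against Tdg+/- and 6 in the trend, beside 9.21%, 9.29%, 17.2% and 9.4% of all transcripts. DESeq2 called 0, 2, 4 and 1, beside 3.05%, 1.65%, 9.5% and 0.952% of all transcripts. The lowest p in all 3 of the latter comparisons was that of Dnmt3b-202. It was at 9.22, 5.33 and 4.91 TPM in wt, 5.19, 4.99 and 4.32 in Tdg+/- and 3.36, 2.09, 1.73 and 1.82 in Tdg-/-. All Tdg-/- lines were below all lines of both other genotypes (9.23% of all transcripts were fully apart from wt and 17.6% from Tdg+/-), with a log2 fold change of -1.30 ± 0.268 against wt (edgeR adjusted p = 0.527, DESeq2 adjusted p = 0.0027) and -0.92 ± 0.166 against Tdg+/- (edgeR adjusted p = 0.113, DESeq2 adjusted p = 4.32e-05). Dnmt3b-207, the other main coding transcript, was at 10.5, 7.30 and 9.03 TPM in wt, 3.53, 8.41 and 9.50 in Tdg+/- and 6.81, 4.71, 4.67 and 5.40 in Tdg-/-. Its fold change of -0.23 ± 0.311 against Tdg+/- (edgeR adjusted p = 0.761) differs from that of Dnmt3b-202, but this difference was not tested, and neither transcript has an 80-base stretch of its own. Without Tdg-/- line 1, edgeR called Dnmt3b-202 (-1.03, adjusted p = 0.0199) and Dnmt1-202 (-0.95, adjusted p = 0.0228) lower in Tdg-/- against Tdg+/-, where 8.56% of all transcripts were called.

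**Figure D4:**
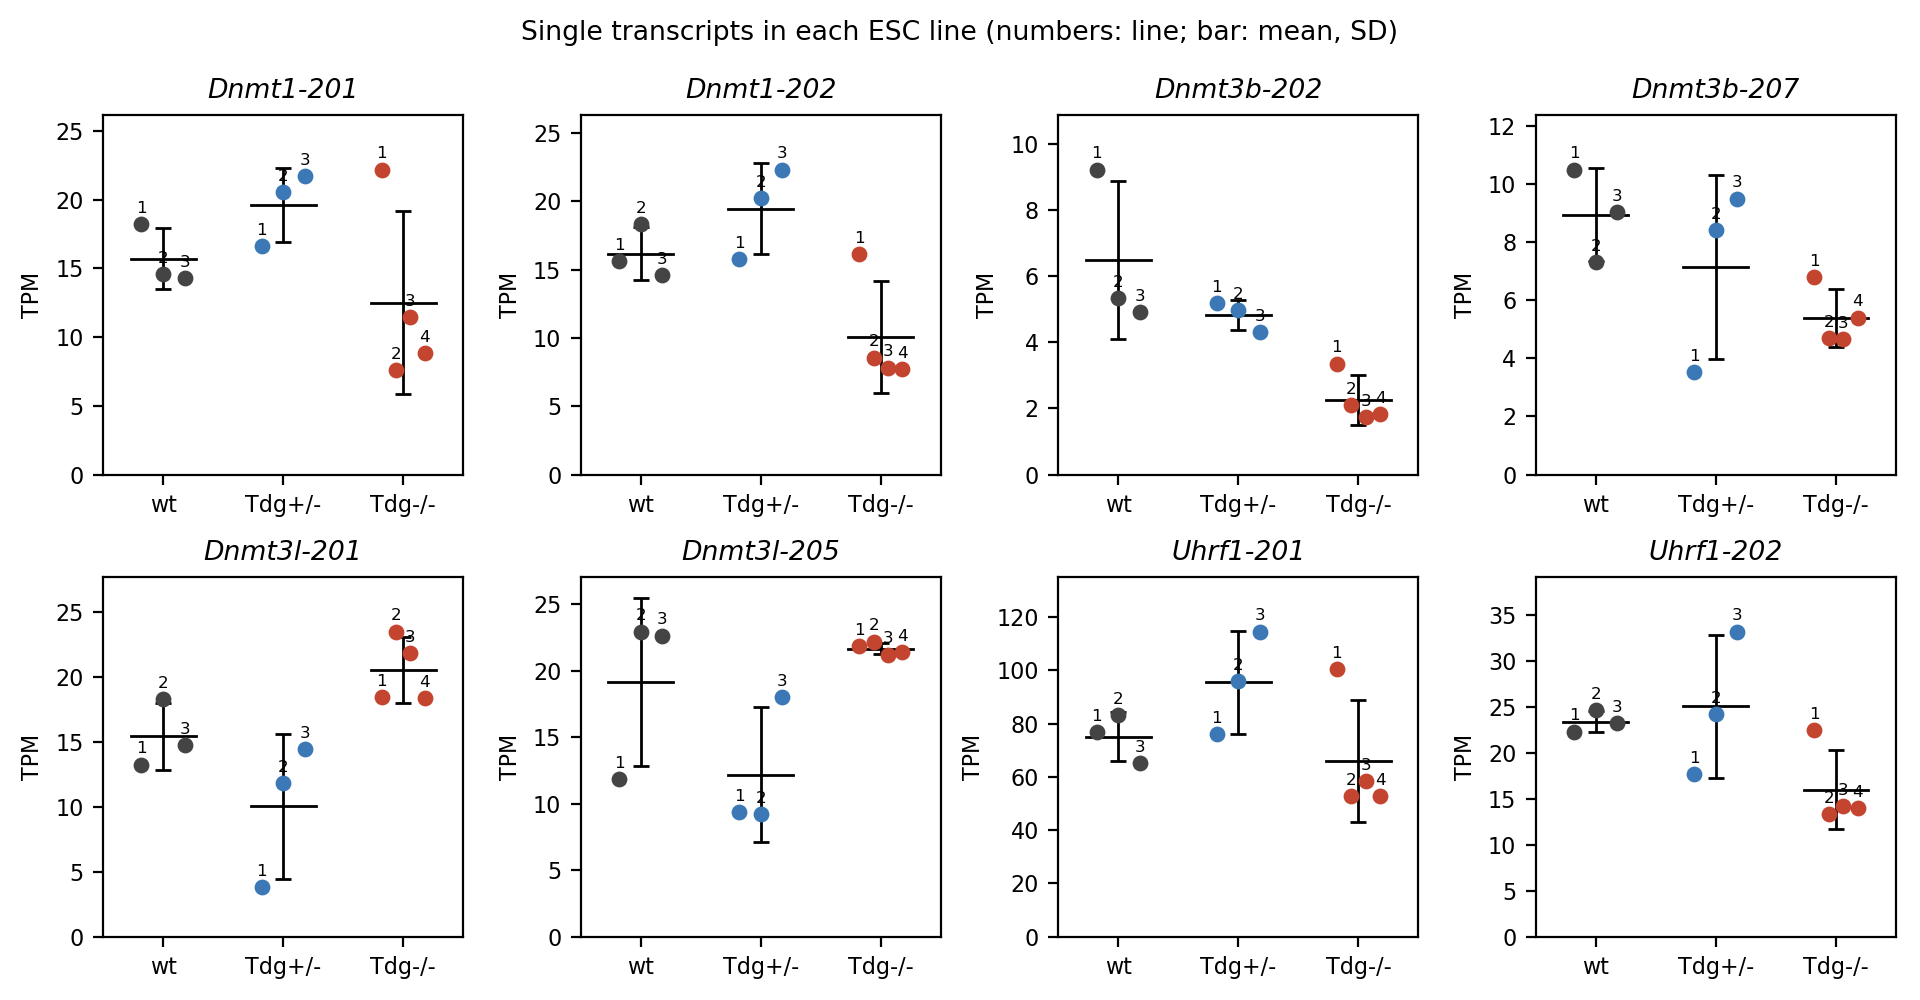
TPM (y axis, from 0) of 8 coding transcripts of Dnmt1, Dnmt3b, Dnmt3l and Uhrf1 in the 10 lines, by genotype (x axis). Points are lines with their number, the horizontal bar is the mean and the whisker the SD. Dnmt3b-202 was at 1.73 to 3.36 TPM in Tdg-/- and 4.32 to 9.22 TPM elsewhere, and Tdg-/- line 1 lay apart from lines 2 to 4 for Dnmt1-202, Uhrf1-201 and Uhrf1-202.

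Most Tet1 reads came from Tet1-206, the transcript of 14369 bases, which took 2859 to 4985 reads per line where the whole gene took 2940 to 5115. It was at 12.6, 14.5 and 13.8 TPM in wt, 14.5, 10.9 and 13.3 in Tdg+/- and 11.9, 7.90, 8.97 and 7.74 in Tdg-/-, with a fold change of -0.44 ± 0.111 against wt (edgeR adjusted p = 0.536, DESeq2 adjusted p = 0.00646). This long transcript was not fitted with the length trend removed. Of Tet2, between 25 and 86 reads per line went to Tet2-210 and between 83 and 227 to Tet2-208, both annotated as retaining introns, and the coding Tet2-204 took 1085 to 2286. Uhrf1-201 held 67.0% of Uhrf1 TPM in wt, 70.4% in Tdg+/- and 69.7% in Tdg-/-.

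Partners of these enzymes were read from 5 lists, which were put together from general knowledge. DESeq2 called some list genes in Tdg+/- against wt (5.36% of all genes), as did edgeR in Tdg-/- against wt without Tdg-/- line 1 (22.1%). With the length trend removed, edgeR called genes of all 5 lists in Tdg-/- against Tdg+/- (12.7% of all genes). With TMM scaling, all lines and no covariate, edgeR called list genes only in Tdg-/- against Tdg+/-, and there in 2 lists (9.03% of all genes were called). Of 17 tested genes that bind TET proteins or supply their cofactors, 1 rose and 3 fell, with a list median of -0.17. Idh1, a source of 2-oxoglutarate, rose from 205.0 to 219.4 CPM in Tdg+/- to 247.9 to 318.6 in Tdg-/- (0.50 ± 0.118, edgeR adjusted p = 0.0384). Ogdh, which consumes 2-oxoglutarate in the citric acid cycle, fell (-0.78 ± 0.159, edgeR adjusted p = 0.0278), as did Hcfc1, a partner of the O-GlcNAc transferase (-0.82 ± 0.178, edgeR adjusted p = 0.0322), and Slc23a2, a transporter of ascorbate, which TET enzymes use (-0.66 ± 0.15, edgeR adjusted p = 0.035). The values of these 4 genes were 0.50, -0.65, -0.52 and -0.41 with the length trend removed, all still past the threshold. Ogdh was at 87.9 to 120.5 CPM in Tdg+/-, 49.8 to 73.6 in Tdg-/- and 60.2 to 80.3 in wt, so that wt overlapped with Tdg-/-. Ogdh lies on chromosome 11, whose 782 genes with a mean of 5 CPM or more had a median log2 fold change of -0.40 in Tdg-/- against Tdg+/- and 0.43 in Tdg+/- against wt, beside 0.0085 and -0.035 for those of other chromosomes. These genes were higher in all 3 Tdg+/- lines (medians of 0.20, 0.42 and 0.27 relative to each gene's median over the lines) than in the 7 other lines (-0.17 to 0.05). The part of this shift in the Ogdh value, and in the other values against Tdg+/-, was not tested. With scaling factors taken without chromosomes 11 and 16, Ogdh was at -0.81 in Tdg-/- against Tdg+/- (edgeR adjusted p = 0.0268). In that fit Dnmt3l was again the only 1 of the 8 genes called, where 1384 of all genes were. Slc23a2 was at 50.5 to 52.0 CPM in Tdg+/-, 28.2 to 41.9 in Tdg-/- and 40.4 to 43.8 in wt. Idh1 was at 242.0 to 267.5 CPM in wt, above all Tdg+/- lines and overlapping with Tdg-/-. Hcfc1 was at 74.05 to 102.2 CPM in Tdg+/-, 42.9 to 68.1 in Tdg-/- and 66.1 to 74.06 in wt, which overlapped with both.

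Of 11 tested partners of de novo methylation, 1 rose and none fell, which is near the 9.03% of all genes called in Tdg-/- against Tdg+/-. E2f6, a repressor that directs methylation to germline promoters, was at 21.3, 23.9 and 23.5 CPM in Tdg+/-, 29.9, 42.2, 37.8 and 37.6 in Tdg-/- and 29.4, 31.5 and 32.2 in wt. Like Dnmt3l its mean was lowest in Tdg+/- and highest in Tdg-/-, with 0.69 ± 0.138 between them (edgeR adjusted p = 0.0274) and 0.71 ± 0.133 (adjusted p = 0.0213) with the length trend removed. With TMM scaling and all lines, edgeR called none of 13 maintenance partners, 13 readers of modified cytosine and 16 genes of methyl donor supply in this comparison. At an unadjusted p under 0.05 there were 4, 3 and 3, beside 35.2% of all genes. DESeq2 called 3, 1 and 2, beside 24.0%. Among them Dppa3, which keeps UHRF1 off chromatin, was at 116.5, 101.0 and 65.4 CPM in Tdg+/- and 50.02, 41.5, 37.7 and 72.3 in Tdg-/-. The wt lines, at 126.6, 48.6 and 54.5, overlapped with both. At -0.90 ± 0.248 Dppa3 just missed the threshold (edgeR adjusted p = 0.0506), and it passed with the length trend removed (-1.12, edgeR adjusted p = 0.0291). So did the reader Zbtb33, which went from 0.50 (edgeR adjusted p = 0.0557) to 0.65 (adjusted p = 0.0343). Pcna went from 0.57 (edgeR adjusted p = 0.0570) to 0.36 (adjusted p = 0.0548) and Gldc from -0.62 (adjusted p = 0.0577) to -0.49 (adjusted p = 0.0730). The calls of Dnmt3l, E2f6, Idh1, Ogdh, Hcfc1 and Slc23a2 were each lost on leaving out Tdg+/- line 2 or 3 or Tdg-/- line 2, 3 or 4.

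Dnmt3l and Tet3 varied most over the lines, by 2.05 and 1.5 on the log2 CPM scale. Among 9636 genes that averaged 5 CPM or more, the profiles most like that of Dnmt3l over the 10 lines were those of Shisa2, Aire and Tiparp, with RMS differences of 0.203, 0.212 and 0.266 where the median gene had 0.673. Aire lies next to Dnmt3l on the other strand, and the gene bodies share 1664 bases in GRCm38. Their exons share only 67 bases, 2.24% of the exon bases of Dnmt3l. Reads of these shared exon bases cannot be assigned to one of the genes without strand. Aire was at 2.89, 7.87 and 5.68 CPM in wt, 2.51, 3.29 and 6.27 in Tdg+/- and 4.80, 9.24, 7.20 and 6.39 in Tdg-/-. For Tet3 the closest profiles were those of Fam234a, Plxna1 and Pias3 (0.187, 0.187 and 0.188 against a median of 0.473).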

How the data were processed

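RNA was sequenced from 10 ESC lines. According to the paper's methods the libraries were stranded total RNA with ribosomal RNA depleted, read from 1 end on a NextSeq 500. The authors quantified transcripts with Salmon 0.8.1 on GRCm39, and deposited an estimated count and a TPM (a level per length that sums to the same total in each line) for each transcript of each line. The strand setting of the quantification is not given in the sources used here. The deposited estimated counts were summed per gene through GENCODE M21 (GRCm38), which paired 115153 of 116357 transcripts (98.97%) and left out 0.472 to 0.499% of reads, and were rounded. The lines held 31095354 to 39916106 reads in genes.

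Genes or transcripts that reached 20 reads in 1 or more of the lines fitted were tested with edgeR 4.0.16 (R 4.3.3) by its quasi-likelihood test with TMM scaling and Benjamini-Hochberg adjustment over all features tested, at an adjusted p of 0.05, 2-sided. CPM are counts scaled to a common library size after TMM scaling. Only lines of the genotypes compared entered a pairwise fit. The trend fit used all 10 lines with 2, 1 or 0 wild-type alleles as a number. Replicates are separate ESC lines by their labels. The fits were tested on simulated data. Alternatives were other scalings, filters, DESeq2 1.42.0, 3 surrogate variables (sva 3.50.0, the number used in the study), a deposited effective length offset, the replicate number as a block and each line left out. After the data were seen, 2 alternatives were added. The first removed from each line its lowess trend (span 0.4) of log2 CPM on log2 transcript length, and the second did so without Tdg-/- line 1. Transcript length was the mean over a gene's transcripts weighted by reads.

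The 8 genes, the partner lists and the tests were chosen with earlier results of these data known. Named transcripts are those with at least 10% of their gene's TPM on average, at most 3 per gene. From each partner list the genes past the threshold were named, at most 4, or else the 2 with the smallest p, and the text gives a selection of these. For the 2 genes with the widest range over the lines, the 3 genes with the most similar profile were named. Deviations of same-numbered Tdg-/- and wt lines from their group means had correlations of 0.18, 0.144 and 0.197 over 12194 genes. In the Tdg+/- and wt comparison these were 0.113, 0.068 and -0.037. In the Tdg-/- and Tdg+/- comparison they were 0.054, 0.033 and -0.119. No source ties the numbers to a pairing of lines. The pairwise values in the Results therefore come from fits without pairing, and the number was a block only as an alternative. With that block edgeR called none of the 8 genes in Tdg-/- against wt, and 5 of all genes. Promoter windows are from RefSeq on GRCm38.p6, and all 8 genes had one. Exons of Dnmt3l share 67 bases with Aire on the other strand in GENCODE M21, those of Dnmt3a 133 bases with Dnmt3aos and those of Tet2 43 bases with Gm42567. The deposited files hold no draws of Salmon's division of reads among transcripts, so that error is not in any SE.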

Additional observations from a re-analysis of the deposited data

Results flagged for a closer look

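Within the 4 Tdg-/- lines, 52 groups of 4 values were looked at and in 8 of them line 1 lay far from the other lines by Dixon's criterion. For independent groups chance gives about 1 in 20. These groups come from the same 4 lines and include transcripts of the same gene, so they are not independent and the counts are no test. Of the transcripts, line 1 had 7.80 TPM of Tet2-204 (3.54 to 3.59 in the other lines), 3.69 TPM of Tet2-208 (2.00 to 2.25), 16.1 TPM of Dnmt1-202 (7.71 to 8.56), 100.3 TPM of Uhrf1-201 (52.6 to 58.3) and 22.5 TPM of Uhrf1-202 (13.3 to 14.3). Of the partner genes it had 41.9 CPM of Slc23a2 (28.2 to 29.7), 105.5 CPM of Smchd1 (58.9 to 65.0) and 1397 CPM of Trim28 (948 to 1005). Line 1 was higher in all 8, and it was also the one Tdg-/- line without the shift against long transcripts.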

How the results depend on the processing

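The count of genes called by edgeR depended strongly on the fit. In Tdg+/- against wt the 4 genes called became 269 with no filter on low counts, 744 with DESeq2, 0 with an effective length offset, 33 with the replicate block, 23 with all 10 lines in the fit, 3350 with 3 surrogate variables, 2 with the length trend removed and 0 to 207 with 1 line left out. For Tdg-/- against wt the 10 became 19 with no filter, 93 with DESeq2, 5 with the replicate block, 979 with the length trend removed and Tdg-/- line 1 left out, and 3 to 3077 with 1 line left out, 3077 being without Tdg-/- line 1. Between Tdg-/- and Tdg+/- the 1261 became 3346 with DESeq2, 464 with an effective length offset, 6 with the replicate block, 4556 with the length trend removed on Tdg-/- lines 2 to 4 only, and 12 to 5659 with 1 line left out. In the trend the 5 became 12 with no filter, 51 with DESeq2 and 2 to 11 with 1 line left out. Transcripts called went from 0 to 1236 with DESeq2 in Tdg+/- against wt. For Tdg-/- against wt they went from 2 to 664 with DESeq2, 0 with the replicate block and 1 to 63 with 1 line left out. Between Tdg-/- and Tdg+/- they went from 5 to 32 with a mean of at least 1 CPM, 3876 with DESeq2, 0 with the replicate block and 0 to 3456 with 1 line left out. In the trend they went from 2 to 401 with DESeq2, 0 with the replicate block and 0 to 6 with 1 line left out.

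Of the 8 genes, 2 were called in Tdg+/- against wt with 3 surrogate variables and 0 to 3 in Tdg-/- against wt with 1 line left out. Between Tdg-/- and Tdg+/-, where 1 was called, the number was 3 with DESeq2, 0 with the replicate block (Dnmt3l at 1.15, edgeR adjusted p = 0.142), 2 with all 10 lines, 2 with the length trend removed on Tdg-/- lines 2 to 4 only and 0 to 4 with 1 line left out. The block changed no other call of the 8 genes. Values that changed sign against the fit with TMM scaling and all lines passed the threshold neither in that fit nor in the alternative. With an effective length offset these were Dnmt3a at -0.48 in Tdg+/- against wt, Tet2 at 0.049 against wt and 0.051 against Tdg+/- in Tdg-/- and at -0.026 in the trend, and Zbtb38 at 0.34 in Tdg-/- against Tdg+/-. With the length trend removed they were, in Tdg-/- against wt, Tet2 at 0.014, Dnmt3a at 0.045 and Uhrf1 at 0.033, in Tdg-/- against Tdg+/- Tet1 at 0.13, Tet2 at 0.20 and Dnmt3a at 0.00011, and in the trend Tet2 at -0.017, Dnmt3a at -0.023 and Uhrf1 at -0.010. With Tdg-/- line 1 also left out they were Dnmt3a at 0.20 in Tdg-/- against wt, Tet1 at 0.17, Tet2 at 0.11 and Dnmt3a at 0.15 in Tdg-/- against Tdg+/-, and Dnmt3a at -0.10 and Nsd2 at -0.030 in the trend. Of these, Tet1 in Tdg-/- against Tdg+/- had been called at -0.43 with TMM scaling and line 1 left out, so a called value changed sign there. With 1 line left out, Tet1 ranged from -0.22 to 0.010, Tet2 from -0.35 to 0.025 and Dnmt3b from -0.22 to 0.19 in Tdg+/- against wt, Uhrf1 from -0.16 to 0.018 in Tdg-/- against wt, Tet2 from -0.35 to 0.013 and Dnmt3b-207 from -0.55 to 0.020 in Tdg-/- against Tdg+/-, and Uhrf1 from -0.00021 to 0.10 in the trend. The cause of these differences was not tested. Tet3, with 28 to 95 reads per line, is limited by depth.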
